A study of Mus musculus with 30 samples.

Results

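Fragments of the mRNAs that encode the proteins of the cytosolic ribosome (RP fragments) were counted in libraries of short RNA made from mouse prefrontal cortex at 6 months of age. The members were the 92 protein_coding genes, of 21866 in GENCODE M21, whose symbol begins with Rpl or Rps and a digit, or with Rplp or Rpsa, leaving out the Rps6k kinases. Of these, 57 carried a large subunit name (Rpl) and 35 a small subunit name (Rps), 6 had a symbol of a retrocopy ("-ps"), and the rule also took in Rps19bp1, which binds a ribosomal protein and is not part of the ribosome. A read was counted when its whole sequence of 20 to 45 nt was found without a mismatch in the sense strand of a protein_coding transcript of a member and in no rRNA, tRNA, snoRNA or miRNA of the annotation used. That annotation holds nuclear tRNAs and the rRNA of the large subunit only in part, so some counted reads may come from them. In total 88 members had at least 1 read, 88 by PANDORA-seq and 83 by traditional-seq. The other 4, all retrocopies (Rpl10-ps3, Rpl36a-ps1, Rpl36-ps4 and Rps12-ps3), had 0 reads of their own.

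The mice were C57BL/6J. The AD group carried 1 copy of the 5xFAD transgenes, which are driven by the neuronal Thy1 promoter, and the WT group held littermates without them. Littermates of both sexes were used, and the replicates of PANDORA-seq are described as biological. The names of the deposited tables share 14 codes between the protocols, but whether these mark the same mice is not stated in the sources used here. The fits over both protocols treat the 30 libraries as independent, so p-values measure the spread between these libraries. Traditional-seq (7 WT and 7 AD libraries) ligates adapters to RNA as isolated, whereas PANDORA-seq (8 WT and 8 AD libraries) first removes methyl groups with the demethylase AlkB and repairs RNA ends with T4 PNK, so that modified RNA and RNA without a 5′ phosphate or 3′ hydroxyl can be read. Both started from RNA of 15 to 50 nt cut from a gel.

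An RP mRNA is among the most abundant mRNAs of any cell, because every ribosome needs a copy of each protein. Most begin with a run of pyrimidines at the cap, the TOP motif, through which the mTOR pathway sets their translation, and their exons and introns often host snoRNAs. Each encoded protein is usually short and basic and has a fixed place in the ribosome, such as the stalk that recruits elongation factors (Rplp0, Rplp1, Rplp2, Rpl12), the particle with 5S rRNA (Rpl5, Rpl11), the tunnel through which the new peptide leaves (Rpl4, Rpl17, Rpl19, Rpl23a, Rpl26, Rpl35, Rpl39), or the side where mRNA enters and is decoded (Rps2, Rps3, Rps15, Rps23).

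The libraries held 54926347 to 105876141 reads by PANDORA-seq and 9370669 to 17053412 by traditional-seq, of which 18163 to 98395 and 443 to 2310, respectively, were RP fragments. Reads in the antisense direction of RP mRNAs numbered 53 to 463 per PANDORA-seq library and 3 to 31 per traditional-seq library. Neuron markers (all 6) and astrocyte markers (all 5) had reads in every group. All 4 markers of thalamus or striatum did too, and so did the choroid plexus marker Ttr, so these reads do not show the region sampled. The summed level of the 5 microglia markers was 81.6 to 276 (median 128) reads-per-million of mRNA reads in PANDORA-seq WT libraries and 150 to 348 (median 197) in AD libraries. In the same unit and groups the medians were 856 and 1485 for oligodendrocyte markers, 167 and 332 for markers of plaque-associated glia and 8375 and 7246 for neuron markers, all with overlap between WT and AD. Of the 6 markers of plaque-associated glia, C4b alone had medians of 155 and 272, so that sum is mostly C4b, and Clec7a had no read. The part of these cells in the results below was not tested, and in tissue fewer cells of a type and less RNA per cell cannot be told apart.

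What an RP fragment looks like is shown by 3 of the 10 most abundant PANDORA-seq fragments and 1 of the 10 of traditional-seq, those that fit a single RP gene and have coding sequence on both sides. Capitals mark the read, and the lower case letters are the 3 bases of the mRNA before and after it (GENCODE M21, GRCm38).
Rps15, PANDORA-seq, 38 nt: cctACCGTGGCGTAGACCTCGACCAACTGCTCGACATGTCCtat
Rpl7a, PANDORA-seq, 41 nt: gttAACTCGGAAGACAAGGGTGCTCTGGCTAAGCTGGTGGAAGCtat
Rpl9, PANDORA-seq, 35 nt: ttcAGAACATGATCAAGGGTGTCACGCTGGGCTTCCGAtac
Rpl22l1, traditional-seq, 29 nt: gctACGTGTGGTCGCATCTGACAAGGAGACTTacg
The Rps15 fragment, from the mRNA of a decoding-side protein, lies in exon 2 at chr10:80292821-80292858 (plus strand). It had 0.674 to 8.11 (median 3.67) reads-per-million of the library (RPM) in WT and 0.495 to 5.60 (median 3.40) in AD libraries by PANDORA-seq, and the groups overlapped. The Rpl7a fragment joins exon 6 (chr2:26912797-26912801) to exon 7 (chr2:26912988-26913023) and had 0.326 to 5.28 RPM in WT and 0.396 to 4.47 in AD libraries. The Rpl9 fragment joins exon 4 to exon 5 (chr5:65390388-65390413 and chr5:65389602-65389610, minus strand). The Rpl22l1 fragment, in exon 4 at chr3:28807244-28807272 (plus strand), had a read in 12 of 14 traditional-seq libraries, with at most 1.11 RPM, and 0 reads by PANDORA-seq. Of these 4 sequences, that of Rps15 fits no other gene of the annotation, while the other three also fit another gene or pseudogene, so their source is uncertain.

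None of the 10 most abundant RP fragments of PANDORA-seq was read in a traditional-seq library. For 2 of them, of 43 and 44 nt, this was fixed by length, since no traditional-seq read was longer than 42 nt. For the other eight, 0 reads over 169126545 allow at most 0.0177 RPM. These 10 were 35 to 44 nt long, and in all 9 with a single position the mRNA continued with T and A after the last base of the read. The 10 most abundant fragments of traditional-seq were 23 to 31 nt long, 6 of them came from Rps29, and in 0 of 10 did T and A follow. Of these 10, 4 had 0 reads in PANDORA-seq, and none had more than 68 in its 16 libraries. Over all RP fragments, 128465 distinct sequences were read by PANDORA-seq and 6747 by traditional-seq. The 2339 that both read made up 1.82% of the first list and 34.7% of the second. Most were rare: 41.4% of the PANDORA-seq sequences and 55.1% of the traditional-seq sequences had 1 read in all libraries of the protocol, and the 10 most abundant held 3.26% and 7.76% of RP reads.

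To describe how much RP mRNA was present as fragments, RP reads were summed per library. By PANDORA-seq the level was 369 to 1239 RPM (median 758) in WT and 331 to 1113 RPM (median 461) in AD libraries, and the groups overlapped over nearly their whole range. By traditional-seq it was 45.7 to 195 RPM (median 99.8) in WT and 47.3 to 151 RPM (median 117) in AD libraries, again with overlap. All 16 PANDORA-seq libraries were above all 14 traditional-seq libraries, and the ratio of the means was 6.35. The mean of AD was 0.717 times that of WT by PANDORA-seq and 1.08 times by traditional-seq, and the latter turned below 1 (log2 −0.02) without WT replicate 1. Fragments of all protein_coding genes moved along with this, with ratios of 0.741 (AD over WT, PANDORA-seq), 0.996 (AD over WT, traditional-seq) and 4.83 (PANDORA-seq over traditional-seq). As a share of mRNA fragments, RP fragments were 0.684% ± 0.0985 (SD, n = 8) in WT and 0.668% ± 0.122 (SD, n = 8) in AD libraries by PANDORA-seq, and 0.513% ± 0.0759 (SD, n = 7) and 0.554% ± 0.0720 (SD, n = 7) by traditional-seq. The ratio between protocols was then 1.27, and 0.997 after mitochondrial genes, Tmem38b and Lars2 were left out of the mRNA total, a choice made after seeing the data.

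**Figure D1:**
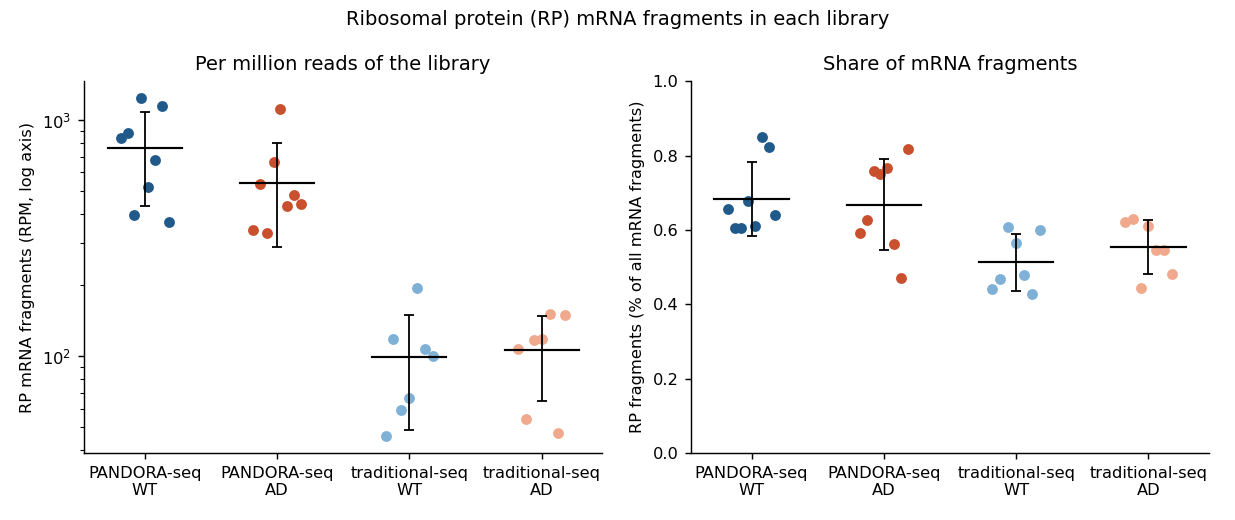
RP mRNA fragments in each of 30 libraries, as RPM on a log axis (left) and as a percentage of all mRNA fragments (right), with 1 point per library and the mean ± SD of each group. The PANDORA-seq libraries lie at 331 to 1239 RPM and the traditional-seq libraries at 45.7 to 195 RPM, while the 4 groups overlap as a share of mRNA fragments and AD overlaps WT in every panel.

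Among genes, levels were compared per kilobase of mRNA (RPM per kb), since longer mRNAs can give more fragments. All reads of a gene were divided by the length of 1 reference mRNA, and in 7 of 88 members under 50% of PANDORA-seq reads lay on that mRNA (Rpl7l1, Rpl10, Rpl22, Rps12, Rps15a, Rps27 and Rps28), so their level per kb is uncertain. Rps29, a zinc-binding protein of the small subunit, was highest in both protocols, with 68.3 ± 47.6 RPM per kb (SD, n = 16) by PANDORA-seq and 42.9 ± 24.9 (SD, n = 14) by traditional-seq. Its libraries ranged from 17.04 to 173 and from 9.91 to 89.7 RPM per kb, so the protocols overlapped for this gene. Rpl41, which encodes the shortest protein of the ribosome, was second in both, at 55.0 ± 25.5 and 8.09 ± 4.80 RPM per kb. Its 2 protocols did not overlap, with a lowest PANDORA-seq library of 22.5 and a highest traditional-seq library of 17.4.

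Among the next genes by PANDORA-seq were Rps15 (30.1 ± 14.9 RPM per kb), Rpl34 (22.9 ± 15.4), Rpl31 (22.5 ± 16.4), Rpl35a (21.1 ± 9.60), Rpl3 (18.2 ± 10.3) and Rpl38 (17.7 ± 10.97), and each of these neighbours differed by less than its spread. Among the next by traditional-seq were Rpl39 (4.32 ± 2.81), Rpl22l1 (4.19 ± 1.85), Rpl34 (4.07 ± 2.90), Rps6 (4.06 ± 1.79) and Rplp1 (3.26 ± 1.90), which also lie within each other's spread. Rps28 and Rps15a would stand in the same range, with 20.4 ± 7.98 and 19.9 ± 8.38 RPM per kb by PANDORA-seq and 3.06 ± 2.15 and 3.28 ± 1.70 by traditional-seq, but 1804 of 7371 Rps28 reads and 6994 of 16888 Rps15a reads by PANDORA-seq, and 108 of 363 Rps15a reads by traditional-seq, lay on the reference mRNA, so they are given no rank. The median over members was 7.78 RPM per kb by PANDORA-seq and 0.941 by traditional-seq. Rps29 alone gave on average 15.9% of RP reads by traditional-seq and 3.78% by PANDORA-seq. Across the 88 members with a read, the rank correlation of levels between protocols was 0.71, a description over genes that share libraries and base composition.

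Paralogs and relatives of the canonical genes were at the low end. Rpl3l, a form of Rpl3 known from heart and skeletal muscle, had 16 reads by PANDORA-seq and 0 by traditional-seq. Rpl10l and Rpl39l, known from testis, had 1 and 2 reads by PANDORA-seq. Rps27rt had 1 read of its own, which gives no level, since other reads fit both it and Rps27. Rps27l had 0.980 ± 0.288 RPM per kb (SD, n = 16) and Rps19bp1 0.482 ± 0.266. Rpl36al had 2.37 ± 1.27. Rpl22l1 was at the level of canonical genes instead, with 9.73 ± 6.15 RPM per kb by PANDORA-seq. However, 69.9% of its reads lay in a window of 50 nt. The Rpl22l1 fragments named in this report lie in that window and also fit another gene or pseudogene, so this level is uncertain. Rpl7l1 had 12249 reads by PANDORA-seq, of which 801 lay on its reference mRNA, so no level per kb is given. Reads of some canonical genes could not be told from those of a copy: 21750 reads fit both Rpl9 and Rpl9-ps6, 12644 both Rpl10 and Rpl10-ps3, 6801 both Rps12 and Rps12-ps3, 4116 both Rpl36a and Rpl36a-ps1, and 3962 both Rps27 and Rps27rt. Levels of Rpl9, Rpl10, Rps12, Rpl36a, Rps27 and Rps27rt are therefore uncertain. Reads shared by several members made up 5.16 to 6.10% of RP reads in PANDORA-seq libraries. RP genes also have many processed pseudogenes, and a median of 68.6% of PANDORA-seq RP reads and 56.8% of traditional-seq RP reads also fit a pseudogene or noncoding transcript exactly.

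**Figure D2:**
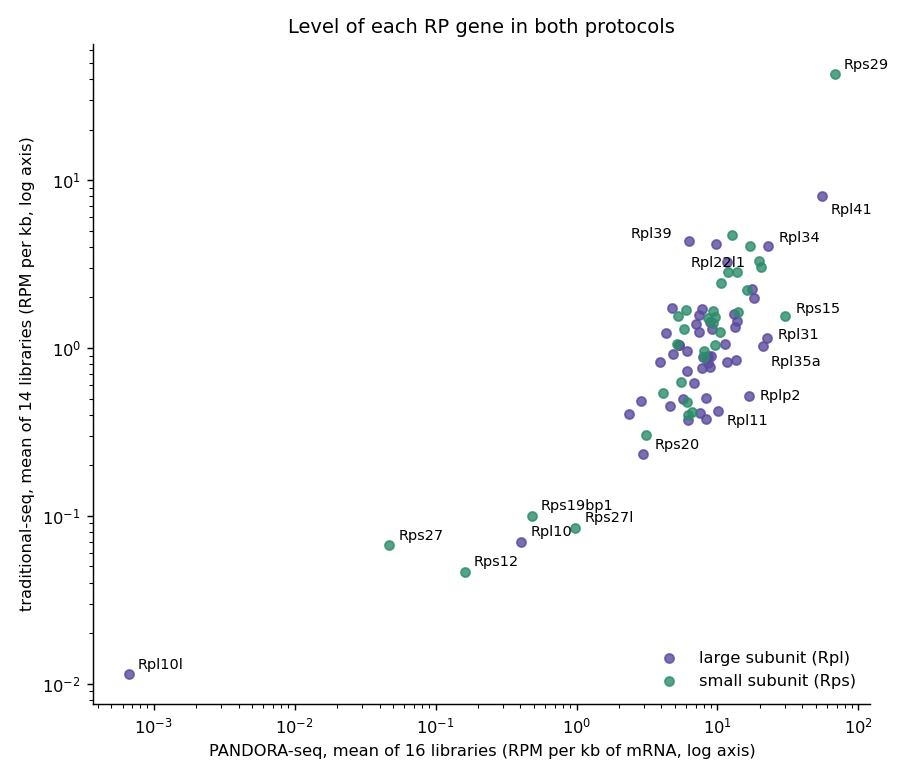
Level of each RP gene by PANDORA-seq (horizontal, mean of 16 libraries) and traditional-seq (vertical, mean of 14 libraries), in RPM per kb of mRNA on log axes, for genes with a read in both. Rps29 (68.3 and 42.9) and Rpl41 (55.0 and 8.09) are at the upper right, and Rpl10l, Rps27, Rps12 and Rpl10 at the lower left.

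By role in the ribosome, the other large subunit genes held the largest share of RP reads by PANDORA-seq and the other small subunit genes by traditional-seq. The first had a median of 41.4% by PANDORA-seq (39.3 to 42.96) and 31.3% by traditional-seq (28.1 to 36.5), and the protocols did not overlap. The other small subunit genes, which include Rps29, held 31.2% (28.96 to 35.5) and 46.5% (34.3 to 51.7). The decoding side held 6.95% (5.81 to 8.74) and 4.33% (2.14 to 5.87), the exit tunnel 6.78% (5.19 to 7.36) and 7.74% (5.32 to 12.1), the stalk 5.15% (4.04 to 5.85) and 4.22% (2.32 to 7.02), and the 5S particle 3.11% (2.22 to 3.79) and 2.36% (0.752 to 3.74). In these last groups the ranges of the protocols overlapped, and within a protocol AD overlapped WT in each role.

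Fragments did not cover the mRNAs evenly. Window shares here are of the reads of a gene that lay on its reference mRNA, a median over genes of 99.8% of its PANDORA-seq reads but 6994 of 16888 in Rps15a, 1473 of 4883 in Rpl22 and 801 of 12249 in Rpl7l1. When the 50 nt with the most reads were located in each mRNA, they held a median of 38.0% of these reads by PANDORA-seq while making up a median of 6.76% of the length (80 genes with at least 100 such reads), and 43.2% by traditional-seq at 6.41% of the length (55 genes). In 23 of the 80 and 22 of the 55 genes such a window held over 50% of them. In Rpl34, a large subunit gene, it held 87.8% of PANDORA-seq and 82.2% of traditional-seq reads, both times within the coding sequence. In Rps29 the window lay in the 3′ UTR in both protocols and held 62.1% and 96.0% of reads, between 38.0 and 73.5% in single PANDORA-seq libraries and between 85 and 99.2% in single traditional-seq libraries.

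The Rps29 3′ UTR was thus the main source of Rps29 reads in both protocols, but the ends of the fragments differed. The most abundant PANDORA-seq fragment there (41 nt, chr12:69157743-69157783, minus strand, exon 3) had 0.326 to 8.46 RPM in WT and 0.231 to 6.37 RPM in AD libraries and 0 reads by traditional-seq. The most abundant traditional-seq fragment (25 nt, chr12:69157748-69157772) lies inside it and had 0.462 to 3.999 RPM in WT and 0.387 to 8.27 RPM in AD libraries. It had 1 read in the 16 PANDORA-seq libraries together.

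Other genes with such a window by PANDORA-seq included Rpl31 (79.3% of reads, at the end of the coding sequence and the start of the 3′ UTR), Rpl35a (74.1%, in the coding sequence) and Rps15 (72.7%, in the coding sequence). Among the 55 genes with at least 100 reads in both protocols, the 2 windows shared 25 nt or more in 20 genes and did not overlap in 31. Rps15 (54.1% of traditional-seq reads) and Rpl3 (31.1 and 31.5%) had nearly the same window in both. Rpl41 had its window in another stretch of the 3′ UTR by traditional-seq (79.8% of reads) than by PANDORA-seq (42.1%). The windows were chosen by the reads they hold, so these shares are a description.

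**Figure D3:**
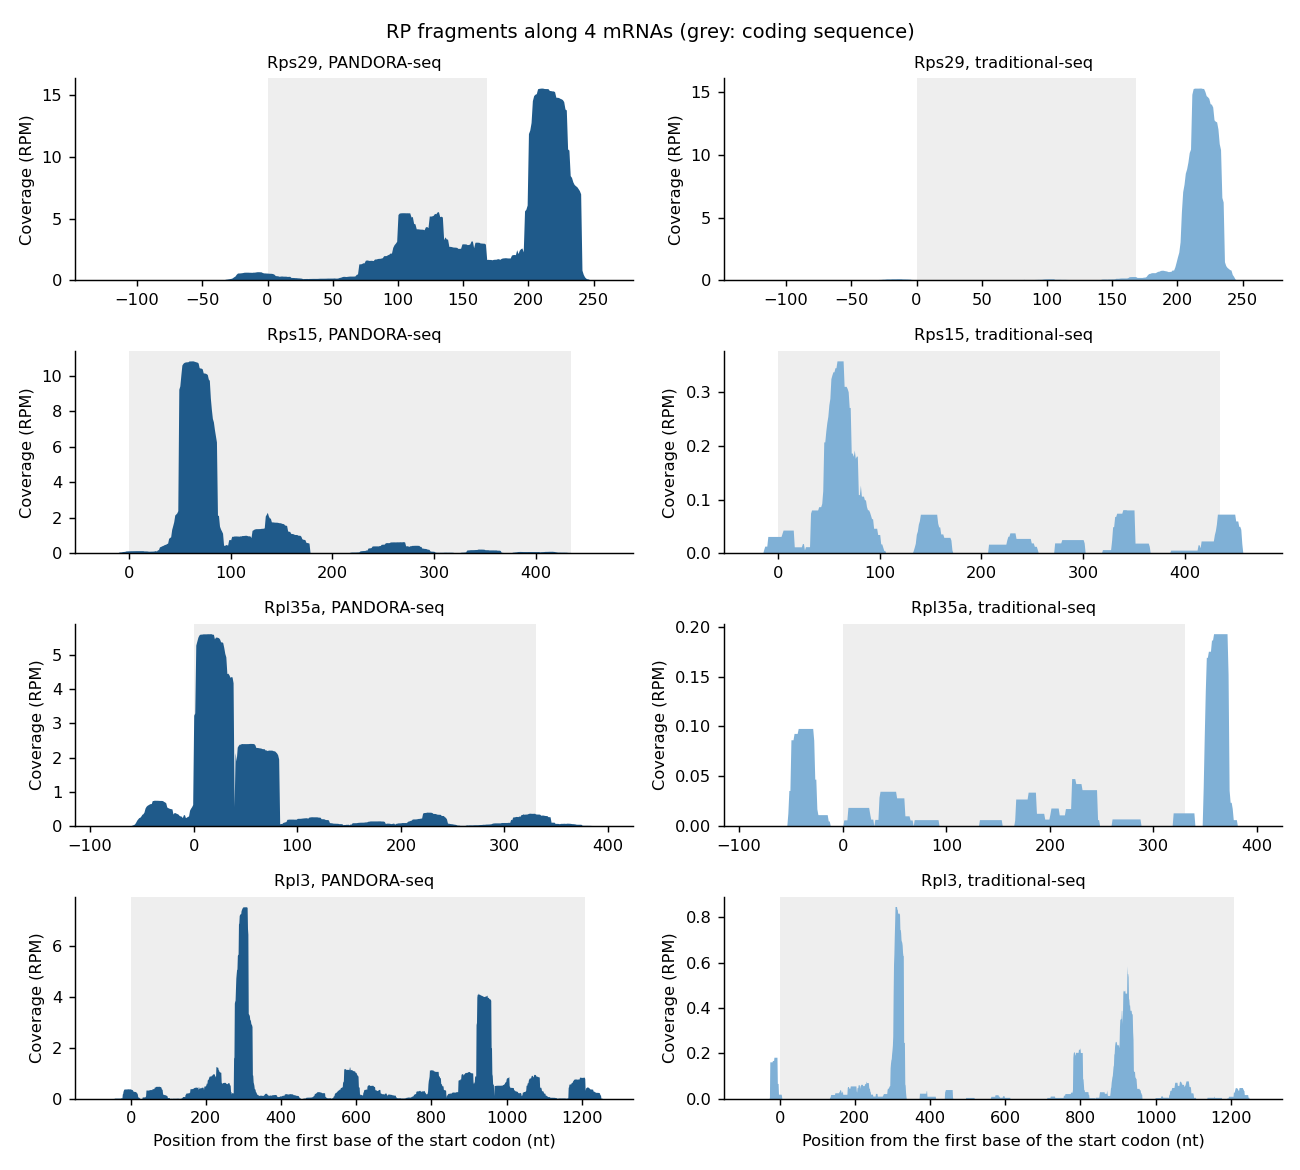
Coverage by RP fragments (vertical, summed RPM, mean of the libraries of a protocol) along the Rps29, Rps15, Rpl35a and Rpl3 mRNAs, by position from the start codon in nt (horizontal), with the coding sequence in grey. Rps29 peaks in the 3′ UTR in both protocols, Rps15 and Rpl3 peak at the same places in the coding sequence, and Rpl35a peaks at the start of the coding sequence by PANDORA-seq alone.

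RP fragments that could be placed on a reference mRNA came mainly from its coding sequence. A median of 11.3% of RP reads by PANDORA-seq (up to 16.2% in a library) and 9.52% by traditional-seq (up to 12.3%) fit several genes or lay off the reference, and the shares of regions, junctions, ends and frames that follow leave them out. By PANDORA-seq a median of 81.8% of placed reads (75.2 to 83.4 over libraries) had their middle in the coding sequence, 14.9% in the 3′ UTR and 3.40% in the 5′ UTR, against 64.4, 21.1 and 14.5% of the mRNA length when genes were weighted by their reads. In the placed fragments of all other protein_coding genes the coding share was 54.2% (44.3 to 59.4), and no library overlapped that range, but those genes have UTRs of other lengths. By traditional-seq 61.9% of placed RP reads (45.3 to 68.0) lay in the coding sequence and 32.8% in the 3′ UTR, with 59.9 and 22.2% of the length. Rps29 weighs on this 3′ UTR share, since 95.96% of its 2919 placed traditional-seq reads lay in a 50-nt window of its 3′ UTR. The share without Rps29 is not given, so no 3′ UTR excess is read for RP mRNAs in general. A median of 0.230% of placed PANDORA-seq RP reads started in the first 5 nt of the reference mRNA, which need not be the cap in the cell. Exon junctions were crossed by 24.0% of placed PANDORA-seq RP reads (21.1 to 26.8), where reads of the same lengths started evenly over the same mRNAs would cross in 20.1%, and by 10.9% of placed traditional-seq reads (4.88 to 16.8), where even starts give 14.8%.

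The ends of PANDORA-seq fragments lay mostly at particular base pairs. At 66.6% of 5′ ends (median, 42.96 to 77.8 over libraries) the base before the read was a pyrimidine and its first base a purine, whereas 22.3% of all neighbouring base pairs in these mRNAs are such a pyrimidine–purine step. The step from T to A alone made up 26.8% of 5′ ends (11.4 to 43.9) against 3.43% in the mRNAs. The step recurred at the other end, shifted by 1 nt: at 70.4% of 3′ ends (48.4 to 78.2) the first 2 bases past the read were a pyrimidine and a purine, while the last base of the read and the next base formed such a step in 7.67% (5.02 to 14.3). In the printed Rps15, Rpl7a and Rpl9 fragments this can be seen as "ta" after the capitals, and as a "t" or "c" before an initial A. Enzymes of the RNase A family are known to cut between a pyrimidine and the base that follows it, with A as a favoured next base. Which enzyme, if any, made the ends seen here was not tested.

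WT and AD libraries overlapped in these ends, and so did RP fragments and those of other genes. WT libraries ranged from 51.7 to 72.7% and AD libraries from 42.96 to 77.8% at the 5′ end. Fragments of all other protein_coding genes had the step at 69.1% of 5′ ends and past 71.5% of 3′ ends, in ranges that overlap those of RP fragments. By traditional-seq the step was at 26.1% of 5′ ends (21.2 to 30.1), past 23.3% of 3′ ends (18.9 to 27.9) and across 32.5% of them (26.9 to 42.99). The ranges of the 2 protocols did not overlap for any of these 3 measures.

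**Figure D4:**
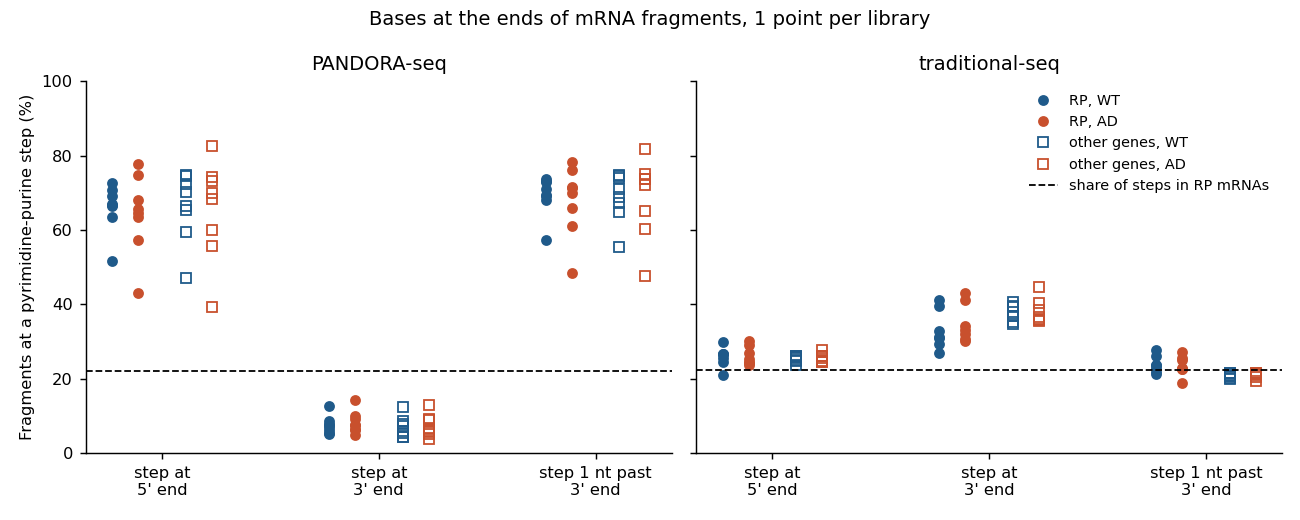
Share of fragments (%) whose 5′ end, whose 3′ end, or whose position 1 nt past the 3′ end is a pyrimidine–purine step, with 1 point per library, filled for RP fragments and open for fragments of other genes, and a dashed line for the share of such steps in RP mRNAs (22.3% by PANDORA-seq weights). For RP fragments (filled), PANDORA-seq libraries lie at 42.96 to 77.8% (5′ end) and 48.4 to 78.2% (past the 3′ end), and at 5.02 to 14.3% across the 3′ end, while traditional-seq libraries lie between 18.9 and 42.99%. For other genes (open), PANDORA-seq libraries lie at 39.4 to 82.5%, 47.8 to 81.7% and 3.98 to 12.9%, and traditional-seq libraries reach 44.6%.

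The reading frame of the 5′ ends was uneven too. By PANDORA-seq, 45.04% of coding RP reads (39.8 to 47.9) began at the first base of a codon, against 39.6% (36.4 to 41.01) for other genes and 35.1% (26.7 to 39.6) for RP reads by traditional-seq. Of the pyrimidine–purine steps in the RP coding sequences, weighted by each gene's reads, 46.9% have their purine at the first base of a codon, a share close to that of the reads. By PANDORA-seq the frame of a read also moved with its length, with 53.7% of reads in that frame at lengths that leave 2 when divided by 3, 44.3% at multiples of 3 and 33.2% at the rest (26 to 45 nt). By traditional-seq these shares were 30.6, 31.9 and 41.04%, in another order. For other genes by PANDORA-seq they were 44.7, 35.7 and 38.5%, so the order of the last 2 was the reverse of that in RP reads. Shares by length pool the reads of all libraries, so they have no spread and abundant fragments weigh on them.

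To find RP genes whose fragments differ between AD and WT mice, the reads of each protein_coding gene were tested with edgeR's quasi-likelihood test, relative to all mRNA reads. By PANDORA-seq 80 members were tested, 12 had too few reads (the 4 without reads, Rps27, Rps27rt, Rps12, Rpl9-ps1, Rpl9-ps6, Rpl10l, Rpl39l and Rpl3l), and 0 were called at an adjusted p under 0.05 with a fold change over 2, where 0.0% of the 13616 genes tested were called in either direction. The edgeR likelihood ratio test and DESeq2 also called 0. At an unadjusted p under 0.05, 4 members were higher and 5 lower in AD, where 6.96% and 3.29% of all genes were. The median log2 difference over the members was 0.01, beside 0.02 over all genes, and 79 of 80 lay within 1.5-fold.

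The 3 members with the smallest p in each direction are given as values. Rpl21, a large subunit gene, had 65.3 to 105 (median 84.1) reads-per-million of mRNA reads in WT and 39.3 to 90.1 (median 57.4) in AD libraries, a log2 difference of −0.51 ± 0.13 (SE) with an adjusted p of 0.44. Rpl15 had medians of 115.7 and 90.4 (log2 −0.44 ± 0.13), and Rpl26, at the exit tunnel, 36.6 and 21.4 (log2 −0.69 ± 0.25). On the other side stood Rps28 with medians of 49.3 and 66.5 (log2 0.40 ± 0.16), Rpl10 with 2.69 and 3.98 (log2 0.53 ± 0.22) and Rps9 with 60.7 and 71.4 (log2 0.28 ± 0.13). WT and AD libraries overlapped in each of these 6 genes. Rpl26 moved to a log2 difference of 0.03 when reads of 20 to 40 nt alone were counted, and Rpl15 to 0.04 with reads that fit 1 gene, so the direction of both rests on which reads are counted. With all reads as library size Rps28 moved to −0.06 and Rps9 to −0.18, so none of these 4 directions is firm. Rpl21 and Rpl10 kept their direction over 11 alternatives, but their size moved, from −0.934 to −0.205 and from 0.149 to 0.68. Rpl10 had 425 PANDORA-seq reads of its own. The 12644 reads of both protocols that fit both Rpl10 and Rpl10-ps3 were not in its test, so its value covers a small part of its reads.

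By traditional-seq 40 members were tested, 0 were called, and 0 had an unadjusted p under 0.05 (1.92% higher and 1.34% lower of 3440 genes). DESeq2 and the likelihood ratio test called 0 members as well. The gene called in the whole table, 0.0291% of it, was Thy1, with a log2 difference of 1.46 ± 0.26 and an adjusted p of 0.027. Its promoter drives the transgenes. By PANDORA-seq Thy1 was not called (log2 0.83 ± 0.48, adjusted p 0.51), with 313 to 2519 reads-per-million of mRNA reads in WT and 359.9 to 2949 in AD libraries, which overlap. The median over RP members was 0.23, beside −0.01 over all genes. Among the members with the smallest p were Rps16 (log2 0.40 ± 0.24) and Rps13 (0.56 ± 0.37) on the higher side and Rpl39 (−0.51 ± 0.39), Rpl17 (−0.31 ± 0.35) and Rpl22l1 (−0.30 ± 0.36) on the lower side. For none of these did the difference exceed 2 SE. Their reads are few: Rps13 had 166 over the 14 libraries.

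By role, the medians over members in PANDORA-seq were 0.04 on the log2 scale for the 5S particle, 0.03 for the stalk, 0.00 for the exit tunnel, 0.01 for the decoding side, −0.07 for the other large subunit genes and 0.03 for the other small subunit genes, with 0 called in each. Other genes of translation gave 0 called genes as well: 78 mitochondrial ribosomal proteins (median log2 −0.14), 17 further TOP mRNAs such as those of elongation factors (−0.06), 15 ribosome biogenesis genes (−0.12) and 48 initiation factors (−0.10). At an unadjusted p under 0.05, where 6.96% of all genes were higher and 3.29% lower, the initiation factors counted 1 higher and 8 lower, the mitochondrial ribosomal proteins 0 and 4, and the TOP mRNAs and biogenesis genes 0 and 1 each. Nothing is read from these counts about a list. A difference of AD effects between protocols was tested in all 30 libraries. It was called for 0 of 80 members (0.0% of 12769 genes), with 2 higher and 4 lower at an unadjusted p under 0.05 (4.36% and 3.05% of all genes), and DESeq2 and the likelihood ratio test called 0. Those with the smallest p were Rpl11 (log2 1.14 ± 0.41), Rpl35a (0.97 ± 0.44) and Rps27a (0.77 ± 0.40) on the higher side, and Rpl15 (−0.81 ± 0.33), Rpl24 (−1.005 ± 0.45) and Rpl26 (−1.17 ± 0.52) on the lower side. The direction of Rpl35a turned with reads of 26 to 45 nt (log2 −0.17) and that of Rpl15 with reads of 1 gene (log2 0.51). Rpl26 moved to −0.215 with reads of 1 gene and to −0.41 with reads of 20 to 40 nt, and Rpl24 to −0.33 with reads of 26 to 45 nt. Traditional-seq reads of these named genes were few, from 58 (Rpl11) to 213 (Rpl15) over all its libraries.

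Between protocols, RP genes were compared relative to all mRNA reads, with genotype in the fit. Of 80 members, 15 were called higher in PANDORA-seq, where 12.5% of 12769 genes were, and 5 lower, where 5.05% were. The members' shares were 18.8% and 6.25%. At an unadjusted p under 0.05, 38 members were higher and 14 lower, where 29.3% and 14.9% of all genes were. The median over members was 0.34 on the log2 scale, beside 0.19 over all genes. With all reads of a library as its size the split turned to 78 higher and 0 lower (97.8% and 0.211% of all genes). It was 24 and 3 at 26 to 45 nt (18.6% and 3.62%), 18 and 10 of 69 members with reads of 1 gene (13.9% and 4.40%), and 16 and 3 in WT libraries alone (8.75% and 5.11%). In AD libraries alone it was 18 and 7 of 78 members (8.72% and 3.95%). In RPM, mRNA fragments as a whole were 4.83-fold higher in PANDORA-seq.

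The largest of the 15 was Rplp2, a stalk protein, with 42.7 to 115 (median 79.7) reads-per-million of mRNA reads by PANDORA-seq and 4.08 to 56.0 (median 10.1) by traditional-seq, 5.73-fold higher (log2 2.52 ± 0.27, adjusted p 1.47e-09). Rpl11, which binds 5S rRNA, had medians of 90.7 and 14.9 (log2 1.99 ± 0.20), Rpl35a 101 and 26.6 (1.79 ± 0.22), Rpl21 70.2 and 12.95 (1.75 ± 0.23) and Rps15 149 and 34.4 (1.70 ± 0.23). Over all traditional-seq libraries Rplp2 had 36 reads, Rpl21 56, Rpl11 58, Rpl35a 81 and Rps15 133, so these folds rest on few reads. For Rps15 and Rpl35a the lowest PANDORA-seq libraries, 82.2 and 74.5, stood above the highest traditional-seq libraries, 71.7 and 70.5. Both were picked by their large called fold, and genes without overlap were not counted over the whole table. A lack of overlap in them therefore adds no support. The others called higher were Rpl9, Rpl31, Rpl28, Rps18, Rpl37, Rpsa, Rpl32, Rpl4, Rps3 and Rpl14, with log2 differences of 1.60 down to 1.03. For Rpl35a the log2 difference was 0.02 when only reads that fit 1 gene were counted.

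Of the 5 lower in PANDORA-seq, 4 are described here. They were Rpl39, an exit tunnel protein, with medians of 35.4 and 136 (log2 −2.20 ± 0.23, adjusted p 6.13e-10), Rps29 with 237 and 899 (−2.02 ± 0.22), Rpl22l1 with 51.0 and 128 (−1.58 ± 0.22) and Rpl23a with 26.9 and 42.3 (−1.07 ± 0.21). The Rpl23a call was lost without traditional-seq WT replicate 5 (log2 −0.84) or 7 (−0.97) or AD replicate 2 (−0.99) or 4 (−0.89), each then under 2-fold, in WT libraries alone (−0.93), and when the 10-nt margin around snoRNAs and other small RNAs, chosen after seeing the data, was not applied (−0.98). With reads of 26 to 45 nt Rpl22l1 (−0.997) and Rpl23a (−0.84) were under 2-fold too. The protocols overlapped for Rps29, whose highest PANDORA-seq library (587) lay above its lowest traditional-seq library (399.6). In Rpl39, as in Rps29, traditional-seq reads lay mostly in the 3′ UTR, where a window of 50 nt held 75.9% of them. These 4 directions hold relative to mRNA reads, and relative to all reads each of the 4 was higher in PANDORA-seq.

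The length of RP fragments differed between protocols and, in PANDORA-seq, between genotypes. The median length was 36 nt by PANDORA-seq (35 to 38 over libraries) and 25.5 nt by traditional-seq (23 to 27). Fragments of 43 to 45 nt, above the longest traditional-seq read of 42 nt, made up 16.5 to 23.1% of RP reads in WT (median 17.99) and 3.62 to 12.3% in AD libraries (median 6.54) by PANDORA-seq. The 8 WT libraries were all above the 8 AD libraries. The same held for fragments of other mRNAs, with 14.3 to 21.1% against 3.13 to 10.1%, and for all reads of 20 to 45 nt, with 11.8 to 22.4% against 2.20 to 11.3%, so RP fragments shared it with the other reads. At 20 to 40 nt alone the mean RP level of AD was 0.847 times that of WT.

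**Figure D5:**
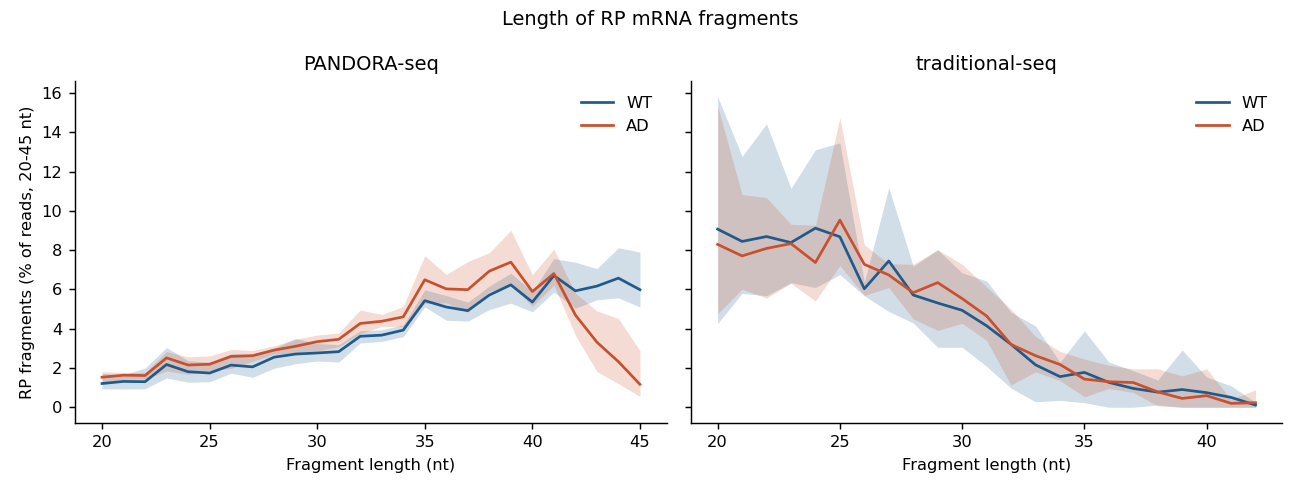
Length of RP fragments in nt (horizontal) as a percentage of RP reads (vertical) by PANDORA-seq (left) and traditional-seq (right), with the mean of WT (blue) and AD (orange) as lines and the lowest and highest library as bands. In PANDORA-seq the AD line drops above 42 nt, to a median share of 6.54% at 43 to 45 nt against 17.99% in WT, and in traditional-seq the bands of WT and AD overlap.

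This length difference carried over to single fragments. Among 40952 distinct mRNA fragments tested by PANDORA-seq, 450 were RP fragments. Of these, 17 were called lower in AD, where 2.69% of all were, and 0 higher, where 0.0317% were. At an unadjusted p under 0.05, 16 were higher and 38 lower, where 3.45% and 8.54% of all fragments were. The likelihood ratio test called 26 RP fragments lower and 2 higher (4.62% and 0.322% of all), DESeq2 28 and 3 (5.50% and 0.464%), the replicate block 23 and 0 (4.23% and 0.0391%), and a filter of 10 reads in all 153 and 12 of 13078 tested (1.19% and 0.0871%). All 17 called fragments were 43 to 45 nt long: 13 of 18 tested at 45 nt (72.2%, where 48.3% of all fragments were), 3 of 22 at 44 nt (13.6%, where 24.5% were) and 1 of 15 at 43 nt (6.67%, where 5.58% were). The RP share was thus above that of all fragments at 45 nt and below it at 44 nt. At 43 to 45 nt together, 22.3% of all fragments were called lower, beside 30.9% of the RP fragments, and with fragments of 20 to 40 nt alone 0 RP fragments were called. To be tested, a fragment had to reach 2.22 reads-per-million of mRNA reads in 8 libraries. Among the 17, between 7 and 8 WT libraries did so, while in 6 of the 17 no AD library did, and so they passed mostly through the group where they are high. A fitted fold against so few AD reads depends on the prior count, and for the fragments of 45 nt below reads are given in its place. The 17 came from 15 genes or gene pairs, and 15 lay in coding sequence. Each of the 17 also fits another gene or pseudogene of the annotation, so its source is uncertain. The count was 11 without WT replicate 1, 2 or 7, 27 without WT replicate 8 and 34 without AD replicate 6. Shares over all fragments are not given for these fits, so nothing particular to RP fragments is read from these moves.

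Of the 5 with the smallest adjusted p, 4 are printed with 3 flanking bases, with the 43-nt fragment of Rpl21 that ends at the same base as its 45-nt fragment. Capitals mark the read, and "ta" after it shows the same 3′ end rule as in the abundant fragments.
Rpl4, 45 nt: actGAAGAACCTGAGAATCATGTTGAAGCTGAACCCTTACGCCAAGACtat
Rpl21, 45 nt: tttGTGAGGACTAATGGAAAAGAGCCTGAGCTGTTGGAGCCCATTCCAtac
Rpl21, 43 nt: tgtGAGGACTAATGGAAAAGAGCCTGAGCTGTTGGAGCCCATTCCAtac
Rpl30, 45 nt: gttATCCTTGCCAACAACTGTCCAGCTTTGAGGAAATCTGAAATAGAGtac
Rpl15, 45 nt: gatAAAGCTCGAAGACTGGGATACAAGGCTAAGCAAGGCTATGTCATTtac
The Rpl4 fragment, in exon 9 at chr9:64177936-64177980 (plus strand), had 0.0652 to 1.28 RPM in WT (median 0.564) and 0 to 0.0486 RPM in AD libraries, with 6 of 8 AD libraries at 0. It had 395 reads in WT and 5 in AD libraries, and the groups did not overlap. For this fragment, the 45-nt Rpl21 fragment and the Rpl30 fragment, 8 WT libraries and 0 AD libraries reached the limit of the filter. They were also picked by their small p, so a lack of overlap in them adds no support. Shorter fragments (20 to 40 nt) with the same first base had a mean of 0.213 RPM in WT and 0.144 in AD libraries. For the 45-nt Rpl21 fragment these means were 0.0445 and 0.0610, and for the Rpl30 fragment 0.1465 and 0.163, so both were higher in AD. For the 43-nt Rpl21 fragment they were 0.149 and 0.0708. The direction of the shorter fragments thus differed among the printed fragments.

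The 45-nt Rpl21 fragment, in exon 6 at chr5:146835891-146835935 (plus strand), had 0.174 to 3.14 RPM in WT and 0 to 0.0729 in AD libraries (711 and 13 reads), and the groups did not overlap. For the 43-nt Rpl21 fragment, 2 nt shorter at the 5′ end, the ranges were 0.196 to 2.73 and 0 to 0.520 RPM, with overlap. It had 715 and 102 reads, and 5 AD libraries reached the limit of the filter (log2 −2.38 ± 0.55).

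The Rpl30 fragment joins exons 2 and 3 and did not overlap between groups, with 329 reads in WT and 19 in AD libraries. The Rpl15 fragment, across exons 2 and 3 too, reached 4.95 RPM in WT and 0.231 RPM in AD libraries, and the lowest WT library (0.228) lay just inside the AD range (1405 and 31 reads). Shorter fragments with its first base were nearer to each other, with means of 1.84 RPM in WT and 1.22 RPM in AD libraries. Further called fragments came from Rps10, Rpl3 (2), Rps6, Rpl22l1, Rpl34, Rpl26, Rps29 (in its coding sequence), Rpl7a, Rpl41 and from the pair Rps12 and Rps12-ps3.

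In the Rps29 3′ UTR, nested fragments of 44 and 41 nt can be compared. The 44-nt fragment had 0.4998 to 4.42 RPM in WT (median 2.79) and 0.0182 to 1.13 RPM in AD libraries (median 0.249), whereas the 41-nt fragment that ends at the same base had medians of 3.30 and 1.81 RPM. Both pairs of groups overlapped. By traditional-seq 1 RP fragment had enough reads to be tested, the 25-nt Rps29 fragment, and it was not called (log2 0.27 ± 0.59). At an unadjusted p under 0.05 it did not pass either, where 0.11% of all fragments were higher and 0.329% lower, and DESeq2 and the likelihood ratio test called 0. In 912 fragments tested there, 0.0% were called in either direction.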

How the data were processed

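Small RNA of mouse cortex was read in 30 libraries. The deposited tables hold, for each library, every distinct sequence with its length and its count of reads, as made by the authors with SPORTS1.1, with no normalization and with lengths limited by them to 15 to 45 nt. The authors' notes name the build mm39. Their annotation was not used here. Instead, sequences of 20 to 45 nt were compared without a mismatch with transcripts of GENCODE M21 (GRCm38). Those found in an annotated rRNA, tRNA, snoRNA or miRNA, or within 10 nt of one inside an exon, were left out, and Rpl32 and Rps20, which host snoRNAs, held 70.1% and 23.2% of the RP matches left out. A read that fit exactly 1 RP gene counted for it, and one that fit several counted in the RP sum alone. The 10-nt margin was chosen after seeing the data.

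Counts per gene and per sequence were tested over the whole table with edgeR 4.0.16 in R 4.3.3 (quasi-likelihood test, TMM, filterByExpr with a smallest count of 10 and total of 15, Benjamini-Hochberg adjustment). Calls were made where the fold change was over 2 and the adjusted p under 0.05. The edgeR likelihood ratio test and DESeq2 1.42.0 were alternatives, beside other filters, lengths, library sizes and treatments of shared reads, and each library was left out in turn. Sums over RP genes were described without a test. Floors cover counting error only. In simulated PANDORA-seq counts 200 genes or sequences were changed at each fold, and some then failed the filter. Of the genes tested, 81 of 197 changed 2-fold and 184 of 192 changed 4-fold were called. At 2-fold 116 had an adjusted p under 0.05, and the limit of a fold over 2 removed the rest. Of the sequences tested, 0 of 175 changed 2-fold, 2 of 149 changed 4-fold and 125 of 130 changed 16-fold were called. Libraries of the same number deviated together in 2 of 8 PANDORA-seq and 0 of 7 traditional-seq pairs (correlation over 0.1), so numbers were not taken as pairs.

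The members and gene lists were chosen with earlier results of these data known. Named genes were the 10 highest per kb in each protocol, the 3 with the smallest p in each direction for genotype, the 5 largest called changes in each direction between protocols, paralogs, and the abundant and called fragments. Some items that met this rule are not reported here. Python 3.11.15, pandas 2.3.3 and matplotlib 3.10.9 were used.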

Additional observations from a re-analysis of the deposited data

Results flagged for a closer look

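In 66 groups of 7 or 8 libraries the highest and lowest library were set against the rest by Dixon's criterion, which chance meets in about 1 in 20 groups, and 8 met it. The groups reuse the same libraries and are not independent, so the 8 are not separate results and no surplus is read from them. Among AD libraries of PANDORA-seq, the highest RP level was 1113 RPM, with the next at 666 RPM and a median of 461 RPM. It was that of replicate 5, which also had the highest level of all mRNA fragments among them (145256 RPM). The highest AD value of PANDORA-seq also stood apart for Rpl41 (91.4 RPM per kb, next 49.1), Rpl34 (39.5, next 18.3), Rpl31 (39.0, next 19.98) and Rpl38 (36.4, next 14.8). Among WT libraries of traditional-seq the lowest share of placed RP reads in coding sequence was 45.3%, with the next at 60.2%. Among WT libraries of PANDORA-seq the lowest share of 5′ ends at a pyrimidine–purine step was 51.7% (next 63.6%), and the lowest share of 3′ ends 1 nt before such a step was 57.2% (next 68.0%). Both belong to WT replicate 8.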

How the results depend on the processing

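For AD against WT, 0 RP genes were called under every alternative run, the replicate block included. For the difference of AD effects between protocols, where the replicate block was not run, every alternative also called 0. Of the values of single named genes, 854 kept their direction and side of the threshold, 9 lost their call and 10 reversed. With all reads as library size the AD difference became −0.063 for Rps28 and −0.18 for Rps9, and the protocol difference became 0.52 for Rpl39, 0.63 for Rps29, 1.15 for Rpl22l1 and 1.44 for Rpl23a (log2). Counting reads of 1 gene gave 0.038 for Rpl15 in AD and 0.51 for its difference between protocols, 20 to 40 nt gave 0.025 for Rpl26 in AD, and 26 to 45 nt gave −0.17 for the difference between protocols of Rpl35a. RP genes called higher in PANDORA-seq numbered 78 with all reads as library size (97.8% of all genes) and 24 at 26 to 45 nt (18.6%). They numbered 14 to 19 with 1 library left out. Those called lower numbered 0 with all reads as library size (0.211% of all genes), 3 at 26 to 45 nt (3.62%) and 10 with reads of 1 gene (4.40%). They numbered 3 in WT libraries alone (5.11%), 7 in AD libraries alone (3.95%) and 4 to 5 with 1 library left out. RP fragments called lower in AD numbered 26 by the likelihood ratio test (4.62% of all fragments), 28 by DESeq2 (5.50%) and 0 at 20 to 40 nt (0.0%, fewer sequences). They numbered 153 with the loose filter (1.19%), 23 with the replicate block (4.23%) and 11 to 34 with 1 library left out. Those called higher were, in the same order, 2 (0.322%), 3 (0.464%), 0 (0.0%), 12 (0.0871%), 0 (0.0391%) and 0 to 1. Shares over all genes or fragments are not given for fits with 1 library left out, so nothing particular to RP is read from those counts. The log2 level of PANDORA-seq over traditional-seq was 2.67, and it was 0.34 as a share of mRNA reads, 3.47 at 26 to 45 nt and −0.004 without mitochondrial genes, Tmem38b and Lars2 in that share, an alternative chosen after seeing the data. The log2 level of AD over WT by PANDORA-seq was −0.03 as a share of mRNA reads and 0.03 with the same genes left out of that share. It ranged from −0.71 to −0.34 by PANDORA-seq and from −0.02 to 0.36 by traditional-seq with 1 library left out. Apart from the construction of each alternative, the cause was not tested. Traditional-seq held few RP reads, so 52 of 92 members could not be tested there.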
